A study of Rattus norvegicus with 6 samples.

Results

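The genes described here are macrophage scavenger receptors in rat spinal cord after injury, together with related endocytic receptors and the enzyme Arg1. 10 genes were chosen by symbol: Stab1, Msr1, Cd163, Mrc1, Cd36, Scarb1, Marco, Folr2, Colec12 and Arg1. Of these, 9 had a row among the 32623 genes of the deposited gene table, with 12 of its 40808 transcripts, and 8 reached the mean of 0.5 FPKM that was needed for a test. FPKM counts fragments for each kilobase of a gene and scales them to the size of the library, so that levels of different genes can be set side by side. Poly(A) RNA was sequenced in 6 libraries of spinal cord. 3 libraries were labelled ES, from female Wistar rats of 8 weeks with a spinal cord injury model and electrical stimulation, and 3 were labelled SCI, from the same model without the stimulation. All 6 libraries therefore came from injured cord. How the cord was injured, when it was sampled and where it was stimulated is not given in the labels, and no uninjured group is among the libraries. Nothing in the labels ties the libraries to separate animals. The p-values are therefore set by the spread among these 6 libraries, part or all of which may be technical.

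The depth, read from the step size of low transcript values, came to about 13900000, 15100000 and 16100000 read pairs in the ES libraries and 16300000, 16500000 and 18600000 in the SCI libraries. Every ES library was thus shallower than every SCI library. The tissue label was checked against markers of spinal cord, and all 10 of them passed the level filter. That is a weak check, because 15750 of the 32623 genes passed it. The lowest of the markers were Chat, at 1.26 FPKM in ES and 1.09 FPKM in SCI, and Slc6a5, at 1.29 and 0.603. Mbp, the myelin basic protein, averaged 7071 FPKM in ES and 4732 FPKM in SCI, and Hoxc8, a gene of thoracic cord identity, averaged 12.5 FPKM in ES and 18.6 FPKM in SCI.

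Scavenger receptors are cell surface proteins that bind modified lipoproteins, apoptotic cells, myelin debris and haemoglobin complexes and carry them into lysosomes. In injured cord they are best known from macrophages that come in with the blood and from microglia, which must clear myelin and red cell remnants from the lesion. Several of them are also used as markers: Cd163, Mrc1, Folr2 and Stab1 mark macrophages of the meninges and perivascular spaces, and Arg1 is the classical marker of alternative activation in rodents.

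Promoters of 7 of the 10 genes (Folr2, Cd36, Cd163, Marco, Stab1, Mrc1 and Colec12) were found in the RefSeq promoter table of assembly GRCr8, as windows from 250 bases before to 50 bases after the start site. The windows of Stab1 and Mrc1, which were higher in ES, and of Colec12, which was lower, are shown because they differ in composition and hold the core sequence bound by the macrophage factor PU.1. The Stab1 window is chr16:6367310-6367609 on the minus strand, the Mrc1 window chr17:82157475-82157774 on the plus strand and the Colec12 window chr18:1005537-1005836 on the plus strand. Each is printed 5′ to 3′, and the capitals mark GAGGAA or its reverse complement.
Stab1: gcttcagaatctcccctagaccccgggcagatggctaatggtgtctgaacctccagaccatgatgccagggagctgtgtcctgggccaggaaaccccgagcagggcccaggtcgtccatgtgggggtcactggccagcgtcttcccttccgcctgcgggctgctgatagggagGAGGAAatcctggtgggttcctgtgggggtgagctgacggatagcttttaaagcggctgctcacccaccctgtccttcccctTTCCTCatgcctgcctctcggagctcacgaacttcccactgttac
Mrc1: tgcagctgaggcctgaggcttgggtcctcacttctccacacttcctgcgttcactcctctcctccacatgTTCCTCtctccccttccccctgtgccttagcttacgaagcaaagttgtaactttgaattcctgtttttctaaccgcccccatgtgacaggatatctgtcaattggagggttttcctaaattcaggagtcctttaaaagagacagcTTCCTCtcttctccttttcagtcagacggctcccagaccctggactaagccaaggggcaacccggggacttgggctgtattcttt
Colec12: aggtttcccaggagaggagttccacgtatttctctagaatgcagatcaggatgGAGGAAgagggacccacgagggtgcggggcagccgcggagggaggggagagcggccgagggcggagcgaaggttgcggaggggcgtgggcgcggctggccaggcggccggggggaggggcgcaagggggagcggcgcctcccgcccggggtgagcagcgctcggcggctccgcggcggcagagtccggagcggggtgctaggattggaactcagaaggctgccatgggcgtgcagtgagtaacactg

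The GAGGAA matches began at positions -77 and 5 from the start site in Stab1, at -180 and -35 in Mrc1 and at -197 in Colec12. Marco had a match at -104 and Cd36 at -249, and Folr2 and Cd163 had none in these windows. GAGGAA was thus found in 5 of 7 windows of these genes, and in 27.6% of the 33469 windows of the table, on either strand. The AP-1 sequence TGANTCA, the C/EBP sequence TTGCNNAA and the E-box CACGTG were in 0 of the 7 windows, against 7.33%, 10.6% and 6.42% of all windows. For sequences this rare, absence from 7 windows says little. The Colec12 window had a GC content of 70.3% with 29 CpG dinucleotides, a GC content above that of 92.1% of all windows. The Stab1 window had 61% GC with 10 CpG, and the Mrc1 window 51% GC with 5 CpG, beside medians of 51.7% and 7 over the table. A match describes the letters of a window and does not show that a factor binds there.

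Stab1, Msr1, Mrc1, Cd163, Folr2 and Arg1 were higher in ES, and Scarb1 and Colec12 were lower, with adjusted p under 0.05 in limma's test on log2(FPKM + 1) for each. All 8 genes that could be tested were therefore called, 6 higher and 2 lower. Of all 15750 genes tested, 45% were called, with 17.4% called higher in ES and 27.6% called lower. Of the calls 38.8% were thus higher in ES, which became 51.2% after quantile normalization, 57.5% after median centring and 27.0% after rescaling to equal totals, while no direction among the 8 genes changed. In 6 of the 8 genes every ES library lay above every SCI library, which was so for 21.9% of all genes, and in 2 every ES library lay below, which was so for 34.6%. The median log2 fold change of the 8 genes was 0.45, beside -0.06 over all genes tested. In the authors' deposited table, 3 of the genes (Stab1, Msr1 and Arg1) are marked as significant, beside 3.15% of all its genes. That mark does not follow the deposited q-value alone. Mrc1, Scarb1, Colec12 and Folr2 are not marked, although their deposited q-values are 1.71e-11, 4.20e-15, 9.84e-15 and 1.31e-05. The tissue was measured in bulk, so more cells of a type and more RNA per cell cannot be told apart.

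**Figure D1:**
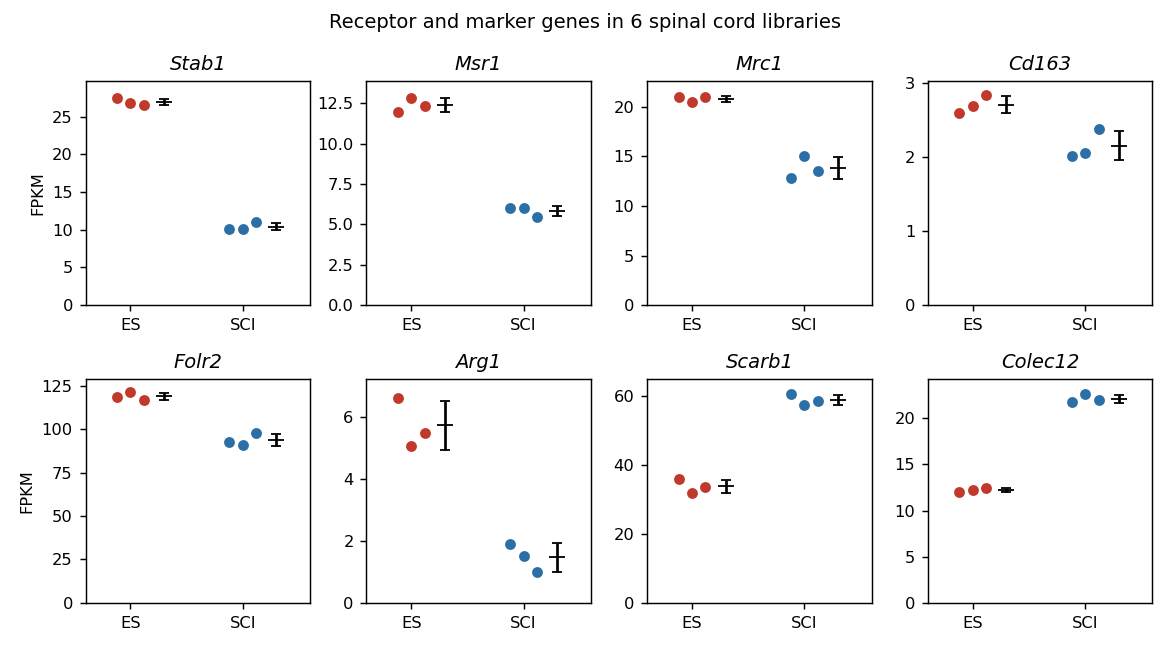
FPKM of the 8 tested genes in each of the 3 ES libraries (red, left) and 3 SCI libraries (blue, right), with the mean and SD beside each group in black; every y axis starts at 0. The 6 genes from Stab1 to Arg1 have all ES points above all SCI points, and Scarb1 and Colec12 have all ES points below.

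Stab1 encodes stabilin-1, a large endocytic receptor of macrophages and sinusoidal endothelium that takes up acetylated lipoprotein and SPARC. It lies on chromosome 16, from 7222067 to 7250924 on the minus strand in the files' coordinates, with 62 exons (ENSRNOG00000018434). Stab1 had 27.4, 26.8 and 26.5 FPKM in the ES libraries, against 10.15, 10.15 and 10.99 FPKM in the SCI libraries. The groups did not overlap, and within each group the libraries lay close together. The means were 26.9 ± 0.454 FPKM in ES and 10.4 ± 0.486 FPKM in SCI (SD, n = 3 each), a log2 fold change of 1.29 ± 0.04 SE (limma adjusted p = 4.45e-06). Only 83 of the 15750 genes had a larger log2 fold change.

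Msr1 encodes the class A scavenger receptor that gave the family its name, a trimer with a collagen-like stalk that binds acetylated and oxidised low density lipoprotein. It has 10 exons on chromosome 16 (56813791 to 56900052, minus strand). Msr1 had 12.0, 12.8 and 12.3 FPKM in the ES libraries, against 6.003, 6.041 and 5.450 FPKM in the SCI libraries. Its lowest ES library stood well above its highest SCI library. The means were 12.4 ± 0.437 FPKM in ES and 5.83 ± 0.331 FPKM in SCI, a log2 fold change of 0.97 ± 0.06 SE with a 95% interval of 0.84 to 1.10 (limma adjusted p = 3.45e-05).

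Mrc1 encodes the mannose receptor, which binds mannose-ended glycoproteins through its lectin domains. Its 30 exons lie on chromosome 17 (81352700 to 81433743, plus strand). Mrc1 had 21.0, 20.4 and 20.9 FPKM in the ES libraries, against 12.81, 15.01 and 13.55 FPKM in the SCI libraries. The ES libraries were nearly equal, and the SCI libraries were more spread but stayed below them. The means of 20.8 ± 0.298 FPKM in ES and 13.8 ± 1.12 FPKM in SCI gave a 1.51-fold ratio (log2 fold change 0.56 ± 0.06 SE, limma adjusted p = 0.000458).

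Folr2 encodes folate receptor beta, the folate-binding protein of tissue-resident macrophages, and was the most abundant of the genes in both groups. It has 4 exons on chromosome 1 (166915045 to 166919302, minus strand). Folr2 had 118, 121 and 117 FPKM in the ES libraries, against 92.6, 90.7 and 97.6 FPKM in the SCI libraries. No SCI library reached the lowest ES library. The ratio of the means was 1.27 (log2 fold change 0.34 ± 0.03 SE, limma adjusted p = 0.000363).

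Cd163 encodes the receptor for complexes of haemoglobin and haptoglobin. It lies on chromosome 4 (156752082 to 156785467, plus strand). Cd163 had 2.60, 2.68 and 2.83 FPKM in the ES libraries, against 2.01, 2.06 and 2.37 FPKM in the SCI libraries. The groups were apart, with the highest SCI library near the lowest ES library. An estimated 139 to 193 read pairs per library lay behind these values. The log2 fold change was 0.24 ± 0.08 SE with a 95% interval of 0.05 to 0.42 and a limma adjusted p of 0.0441, the weakest call of the 8. The call was lost without any 1 of 5 libraries: the limma adjusted p was 0.0765, 0.1001 and 0.129 without ES replicate 1, 2 or 3, and 0.114 and 0.105 without SCI replicate 1 or 2. In each of these 5 cases 7 of the 8 genes were called. Without SCI replicate 3 the limma adjusted p of Cd163 was 0.0357. Rescaling the FPKM values to equal totals also ended the call (log2 fold change 0.18, limma adjusted p = 0.0908). Cd163 has, in the authors' deposited table, a p-value of 0.0448 and a q-value of 0.119.

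Arg1 encodes liver arginase, which turns arginine into ornithine and urea, and is no receptor. It has 8 exons on chromosome 1 (21525421 to 21537863, plus strand). Arg1 had 6.61, 5.07 and 5.50 FPKM in the ES libraries, against 1.911, 1.499 and 0.9946 FPKM in the SCI libraries. The groups were far apart, although the libraries within a group were more scattered than for any other of the genes, with an SD of 13.9% of the mean in ES and 31.3% in SCI. The means of 5.73 ± 0.795 FPKM in ES and 1.47 ± 0.459 FPKM in SCI gave the largest ratio of the 8 genes, 3.90. The change was 1.46 ± 0.16 SE on the log2(FPKM + 1) scale (limma adjusted p = 0.000507). That scale understates the change of a gene at so low a level, and the authors' deposited table has a log2 of 1.96 for Arg1. An estimated 28 to 138 read pairs per library lay behind these values.

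Scarb1 encodes the class B receptor SR-B1, which takes up cholesterol esters from high density lipoprotein and is also made by endothelium and astrocytes. It lies on chromosome 12 (36694960 to 36761455, plus strand), with 3 transcript models. Scarb1 had 35.9, 32.0 and 33.7 FPKM in the ES libraries, against 60.5, 57.5 and 58.7 FPKM in the SCI libraries. All ES libraries were low and all SCI libraries high, with a wide gap between them. The means were 33.9 ± 1.93 FPKM in ES and 58.9 ± 1.52 FPKM in SCI, a ratio of 0.575 (log2 fold change -0.78 ± 0.05 SE, limma adjusted p = 3.91e-05).

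Colec12 encodes collectin-12, or scavenger receptor with C-type lectin, a class A receptor better known from vascular endothelium and perivascular cells than from macrophages. It has 10 exons on chromosome 18 (867048 to 1052606, plus strand). Colec12 had 12.0, 12.2 and 12.4 FPKM in the ES libraries, against 21.8, 22.6 and 22.0 FPKM in the SCI libraries. The libraries within each group were nearly equal, and the groups lay far apart. The means were 12.2 ± 0.224 FPKM in ES and 22.1 ± 0.427 FPKM in SCI, a ratio of 0.552 (log2 fold change -0.81 ± 0.04 SE, limma adjusted p = 1.26e-05). Of all genes tested, 613 had a lower log2 fold change than Colec12 and 668 a lower one than Scarb1.

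Marco, the class A receptor of alveolar and marginal zone macrophages, was listed at 0 in all 6 libraries. The files place its row on chromosome 16, whereas the RefSeq table of GRCr8 has Marco on chromosome 13, and whether the row measures that receptor was not tested. Cd36, the class B receptor for long-chain fatty acids and thrombospondin, had no row under its symbol. RGD1565355, described in the file as similar to CD36, is a synonym of Cd36l1 in the RefSeq table and a neighbour of Cd36 there. It had 1.13, 1.23 and 1.15 FPKM in the ES libraries, against 2.30, 2.61 and 2.60 FPKM in the SCI libraries (log2 fold change -0.69 ± 0.08 SE, limma adjusted p = 0.000614). The groups did not overlap, but a close copy can share its reads with Cd36, so these values are uncertain for either gene.

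**Figure D2:**
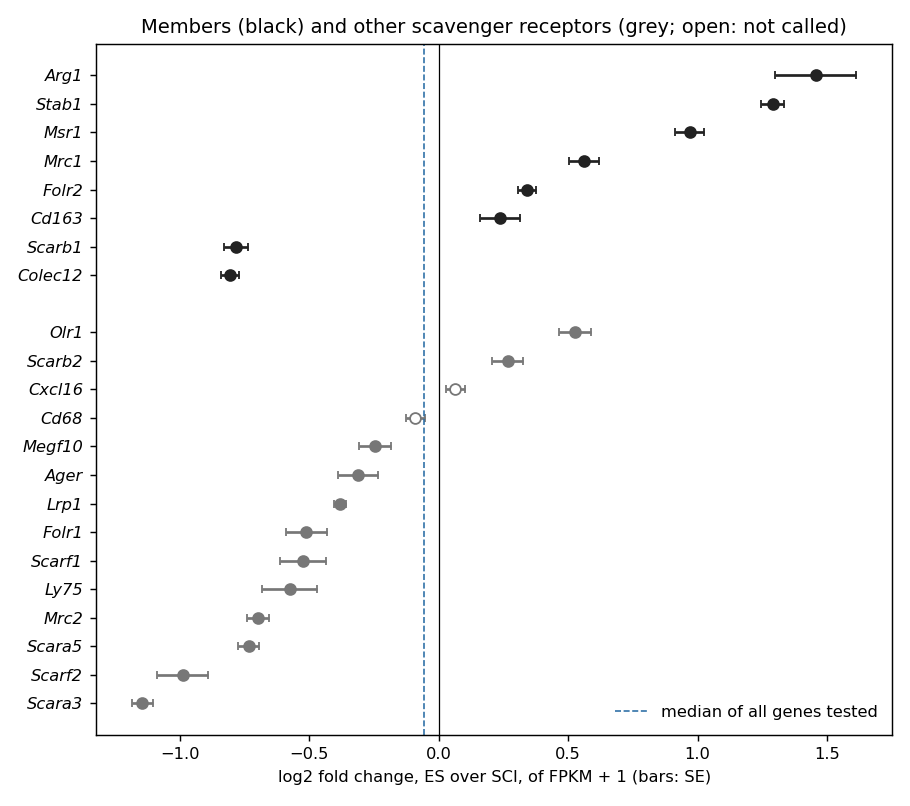
Log2 fold change of FPKM + 1, ES over SCI, with its SE, for the 8 genes (black) and 14 other scavenger receptors (grey, open where not called); the dashed line is the median of all genes tested, -0.06. The values run from 1.46 for Arg1 to -0.81 for Colec12 among the 8, and 10 of the 14 others lie to the left of 0 with a call.

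The order of the levels differed between the groups. In ES it ran Folr2, Scarb1, Stab1, Mrc1, Msr1, Colec12, Arg1 and Cd163, and each neighbouring pair was apart in all libraries except Msr1 and Colec12, whose ES libraries overlapped. In SCI it ran Folr2, Scarb1, Colec12, Mrc1, Stab1, Msr1, Cd163 and Arg1, with every neighbouring pair apart. Stab1 thus stood above Mrc1 in ES and below it in SCI, and Colec12 stood below Stab1, Mrc1 and Msr1 in ES and above them in SCI, although the ES libraries of Msr1 and Colec12 overlapped.

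General markers of macrophages and microglia were also mostly higher in ES, and the receptor genes were therefore set against them. Of 15 such markers 11 were higher (Aif1, Csf1r, Tyrobp, C1qa and others) and 0 lower. Ptprc, Itgam, Cd68 and Ly86 were not called, with Cd68 at 587 FPKM in ES and 625 FPKM in SCI. The summed level of the 15 markers was 6191, 6057 and 6071 FPKM in the ES libraries, against 4787, 4742 and 4836 FPKM in the SCI libraries. This is a 1.28-fold ratio of the means. Relative to this sum Folr2 and Cd163 overlapped between the groups, all ES libraries were above all SCI libraries for Stab1, Msr1, Mrc1 and Arg1, and all were below for Scarb1 and Colec12. Per 1000 FPKM of the marker sum, Folr2 stood at 19.1, 20.0 and 19.3 FPKM in ES and 19.3, 19.1 and 20.2 FPKM in SCI. The groups overlapped, with a log2 difference of -0.01 (exact permutation p = 0.6, two-sided). Cd163 stood at 0.443 ± 0.0237 FPKM in ES and 0.448 ± 0.0371 FPKM in SCI, again with overlap (log2 difference -0.01, exact permutation p = 0.9). These results depended on the marker list: without the C1q genes, which encode complement component C1q, the log2 difference was 0.10 for Folr2 and 0.09 for Cd163. Folr2 then had every ES library above every SCI library (exact permutation p = 0.1), and Cd163 did not (exact permutation p = 0.3).

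Per 1000 FPKM of the same markers, Stab1 stood at 4.41 ± 0.0357 FPKM in ES and 2.18 ± 0.0829 FPKM in SCI, a log2 difference of 1.02. Msr1 stood at 2.03 ± 0.0928 FPKM in ES and 1.22 ± 0.0796 FPKM in SCI, a log2 difference of 0.74. For both receptors every ES library was higher than every SCI library, also relative to the markers. Mrc1 stood at 3.40 ± 0.0403 FPKM in ES and 2.88 ± 0.254 FPKM in SCI (0.24), and Arg1 at 0.937 ± 0.118 FPKM in ES and 0.307 ± 0.0971 FPKM in SCI (1.65). Scarb1 stood at 5.54 ± 0.253 FPKM in ES and 12.3 ± 0.296 FPKM in SCI (-1.15), and Colec12 at 2.00 ± 0.0582 FPKM in ES and 4.62 ± 0.126 FPKM in SCI (-1.21). None of these 6 genes had overlapping groups. Each gave an exact permutation p of 0.1, two-sided, which is the smallest that 3 libraries against 3 allow. The adjusted p over the 8 genes was 0.133 for each. The marker sum itself was higher in ES by 0.35 on the log2 scale, beside a median log2 fold change of -0.06 over all genes tested. A gene at that median is thus also lower relative to the sum. The share of all genes without overlap on this relative scale is not given here.

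**Figure D3:**
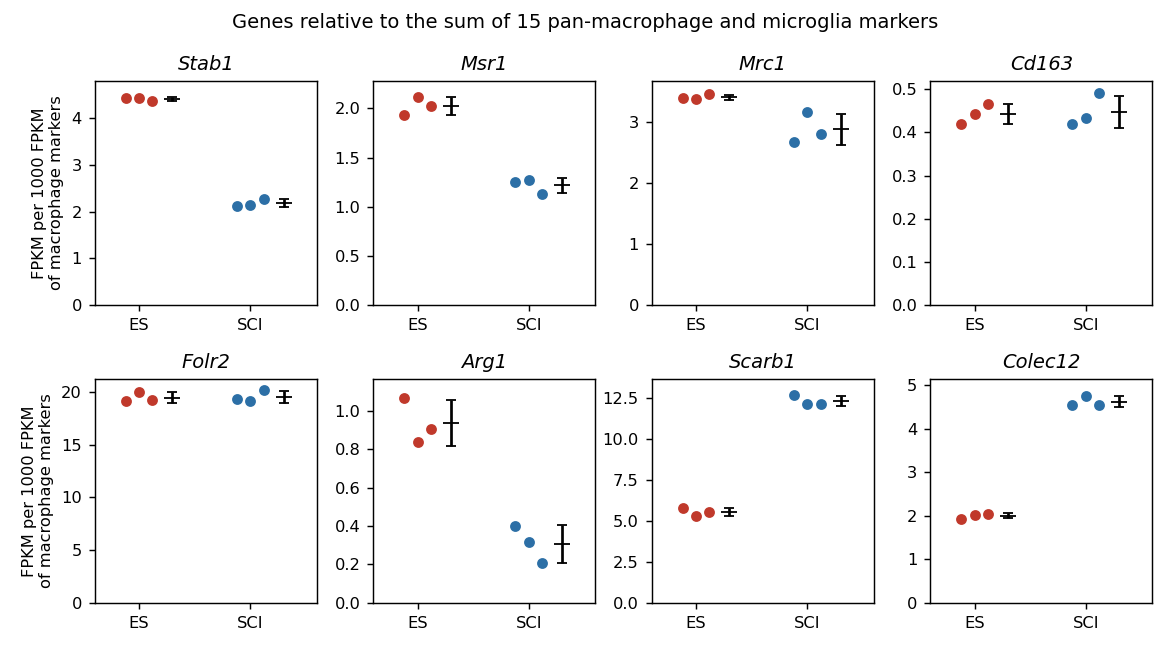
Level of each gene as FPKM per 1000 FPKM of the summed 15 pan-macrophage and microglia markers, in the ES libraries (red, left) and SCI libraries (blue, right), with mean and SD in black. Folr2 and Cd163 overlap between the groups, the ES points of Stab1, Msr1, Mrc1 and Arg1 lie higher, and those of Scarb1 and Colec12 lie lower.

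Ratios between pairs of these genes were compared to see whether genes of a receptor class or a cell type moved alike. 6 of 9 chosen pairs had both genes at 0.5 FPKM or more. The ratio of Msr1 to Colec12, both of class A, was 1.01 ± 0.0324 in ES and 0.264 ± 0.0142 in SCI, a log2 difference of 1.94. In ES these receptors were at nearly equal levels, and in SCI Colec12 was well ahead. The ratio of Stab1 to Msr1 was 2.18 ± 0.101 in ES and 1.80 ± 0.191 in SCI (log2 difference 0.28), and that of Mrc1 to Folr2 was 0.175 ± 0.00569 in ES and 0.148 ± 0.0155 in SCI (0.25). The ratio of Cd163 to Mrc1 was 0.130 ± 0.00585 in ES and 0.156 ± 0.0189 in SCI (-0.26), and that of Mrc1 to Arg1 was 3.67 ± 0.446 in ES and 10.1 ± 3.46 in SCI (-1.41). With a pseudocount of 1 on each FPKM the log2 difference of Mrc1 to Arg1 was -0.90, and leaving out a library gave -1.68 to -1.17. In these 5 pairs the groups did not overlap, with an exact permutation p of 0.1, two-sided, and an adjusted p of 0.12 over the 6 pairs, above 0.05. The ratio of Cd163 to Folr2 was 0.0228 ± 0.00128 in ES and 0.0229 ± 0.0013 in SCI, with overlapping groups (exact permutation p = 0.9).

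7 of the 9 genes with a row had a single transcript model, so only Scarb1 and Cd163 could shift between transcripts. The lower level of Scarb1 lay in its longest model of 2483 bases and 13 exons. That model had 30.5, 30.0 and 27.8 FPKM in the ES libraries, against 56.0, 52.4 and 54.4 FPKM in the SCI libraries, with no overlap (log2 fold change -0.86 ± 0.05 SE, limma adjusted p = 0.000121). Of all 19223 transcripts tested, 32.3% were called. The model of 2250 bases and 12 exons had 6.43, 2.21 and 7.03 FPKM in the ES libraries, against 6.02, 6.57 and 5.68 FPKM in the SCI libraries. ES replicate 2 stood low, the other two ES libraries lay near or above the SCI libraries, and the model was not called (log2 fold change -0.30, limma adjusted p = 0.581). Its share of Scarb1 was 17.3%, 6.68% and 20.0% in the ES libraries and 9.66%, 11.1% and 9.41% in the SCI libraries. The test of transcript usage gave an adjusted Simes p of 0.429 for Scarb1, and 0.00546 without ES replicate 2. Of 2589 genes with such a test, 8.81% were called.

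For Cd163 the assignment to its models varied from library to library. The model of 4223 bases and 16 exons had 99.8%, 47.9% and 99.7% of the Cd163 level in the ES libraries, and 34.1%, 98.9% and 99.7% in the SCI libraries. ES replicate 2 and SCI replicate 1 were thus split between the models, and the other libraries were assigned almost wholly to this one. The usage test gave an adjusted Simes p of 0.824. In ES replicate 2 and SCI replicate 1 the model of 3663 bases and 17 exons had 1.51 FPKM and 1.46 FPKM.

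**Figure D4:**
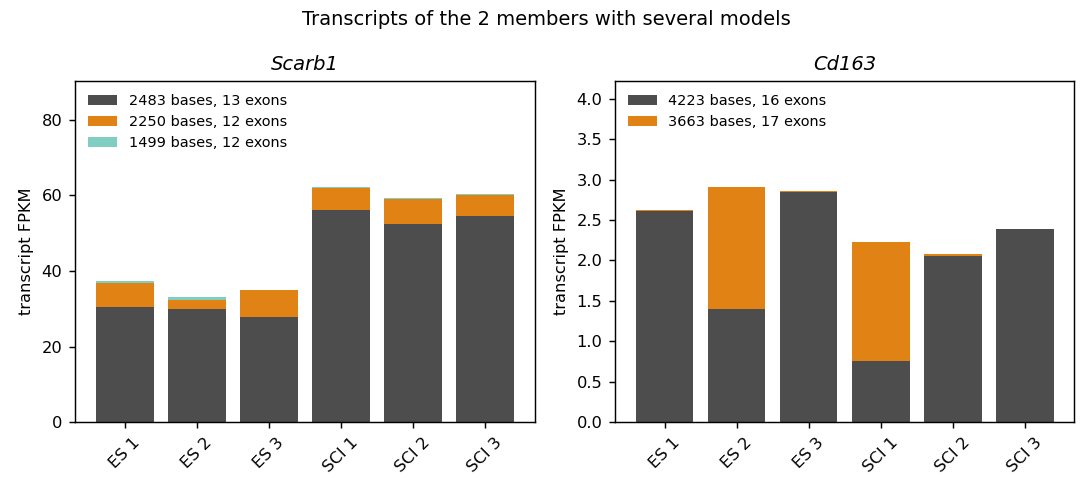
FPKM of each transcript model of Scarb1 (left) and Cd163 (right), stacked by library, ES libraries left of SCI libraries. The 2483-base model of Scarb1 is lower in all ES libraries, and the split of Cd163 differs in ES replicate 2 and SCI replicate 1.

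Other scavenger receptors were mostly lower in ES. Of 14 tested genes of that kind, 2 were higher (14.3%), 10 lower (71.4%) and 2 not called, with a median log2 fold change of -0.45. Among all genes tested the shares were 17.4% higher and 27.6% lower. Olr1, the receptor LOX-1 for oxidised lipoprotein, averaged 7.53 ± 0.264 FPKM in ES and 4.93 ± 0.345 FPKM in SCI (0.53), and the lysosomal protein Scarb2 averaged 81.0 FPKM in ES and 67.4 FPKM in SCI. Scara3 averaged 31.7 ± 1.29 FPKM in ES and 71.4 ± 2.28 FPKM in SCI (log2 fold change -1.15). Scara5, a ferritin receptor, averaged 19.2 FPKM in ES and 32.6 FPKM in SCI, and Mrc2, a collagen receptor of fibroblasts, 21.6 FPKM in ES and 35.8 FPKM in SCI. Cd68, the lysosomal protein of macrophages, averaged 587 FPKM in ES and 625 FPKM in SCI and was not called.

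Genes for the ligands and handling of the cargo stood on both sides. Hmox1, the haem oxygenase that degrades the haem brought in by Cd163, averaged 284 FPKM in ES and 101 FPKM in SCI (log2 fold change 1.48). Hp, the haptoglobin of the Cd163 ligand, averaged 1.23 ± 0.174 FPKM in ES and 3.12 ± 0.309 FPKM in SCI (-0.89). Red cell genes, haemoglobin chains among them, were higher in ES in 7 of 7 tested, with sums of 3089 to 3300 FPKM in ES and 537 to 566 FPKM in SCI. Whether these bear on Cd163 was not tested. Thbs1, a thrombospondin bound by CD36, averaged 6.66 FPKM in ES and 50.8 FPKM in SCI (-2.76), and Sparc, a ligand of stabilin-1, fell by 0.27 on the log2 scale. Spp1, which encodes osteopontin, averaged 2308 FPKM in ES and 740 FPKM in SCI (1.64). Of 15 such genes tested, 5 were higher (33.3%), 7 lower (46.7%) and 3 not called (median log2 fold change -0.17). Among all genes tested, 17.4% were higher and 27.6% lower.

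Of 21 tested phagocytic receptors and engulfment genes outside the scavenger receptors, 11 were higher in ES (52.4%), 4 lower (19.0%) and 6 not called. Their median log2 fold change was 0.14, and 17.4% of all genes tested were higher and 27.6% lower. Fcgr3a, an activating receptor for antibody, averaged 48.7 FPKM in ES and 27.7 FPKM in SCI, Trem2, a lipid sensor of microglia, 185 FPKM in ES and 138 FPKM in SCI, and Mertk, which recognises apoptotic cells, 26.5 FPKM in ES and 17.9 FPKM in SCI. Mfge8, a bridging protein for apoptotic cells, averaged 30.4 FPKM in ES and 39.3 FPKM in SCI.

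Arg1 and Mrc1 are often read as markers of alternative activation, and the other genes of that list did not share 1 direction. Of 16 tested without them, 7 were higher (43.8%), 6 lower (37.5%) and 3 not called (median 0.02), beside 17.4% and 27.6% of all genes tested. Il1rn, the interleukin 1 receptor antagonist, averaged 5.995 FPKM in ES and 2.762 FPKM in SCI, and the inhibitory receptor Cd200r1 averaged 6.57 FPKM in ES and 3.92 FPKM in SCI. Stat3, a signal transducer of interleukin 10, was lower, at 43.0 FPKM in ES and 49.1 FPKM in SCI, as was the transcription factor Klf4, at 7.90 FPKM in ES and 10.4 FPKM in SCI. Clec10a, a galactose lectin, averaged 15.4 FPKM in ES and 15.6 FPKM in SCI and was not called. Il10 and Retnla were listed at 0. Of 13 classical activation genes 2 were higher (15.4%), 4 lower (30.8%) and 7 not called (median -0.08). These shares were near those of all genes tested, 17.4% higher and 27.6% lower. Cxcl10, an interferon-induced chemokine, averaged 24.2 FPKM in ES and 43.6 FPKM in SCI. Ptgs2, the inducible cyclooxygenase, averaged 4.43 FPKM in ES and 2.50 FPKM in SCI. Around arginase, 5 of 17 tested genes of arginine and polyamine metabolism were higher (29.4%) and 6 lower (35.3%), with a median of -0.12. Slc7a2, an arginine importer, averaged 5.68 ± 0.498 FPKM in ES and 16.3 ± 1.29 FPKM in SCI (-1.37). Arg2, the mitochondrial arginase, averaged 1.41 FPKM in ES and 1.62 FPKM in SCI and was not called.

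Of 15 transcription factors of macrophages 3 were higher (20%), 6 lower (40%) and 6 not called (median -0.09), beside 17.4% and 27.6% of all genes tested. The counts became 5 higher and 3 lower after median centring and 2 higher and 8 lower after rescaling to equal totals. Maf, which promotes the macrophage fate, averaged 15.9 FPKM in ES and 27.8 FPKM in SCI. Tfec, a factor of the MITF family, averaged 3.96 FPKM in ES and 1.95 FPKM in SCI. Spi1, which encodes PU.1, averaged 41.6 FPKM in ES and 38.0 FPKM in SCI and was not called. The medians of 4 of these lists changed sign with the scaling: that of alternative activation was -0.05 after rescaling to equal totals, those of the arginine and classical genes were 0.01 each after quantile normalization, and those of the classical genes and the transcription factors were 0.01 each after median centring.

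**Figure D5:**
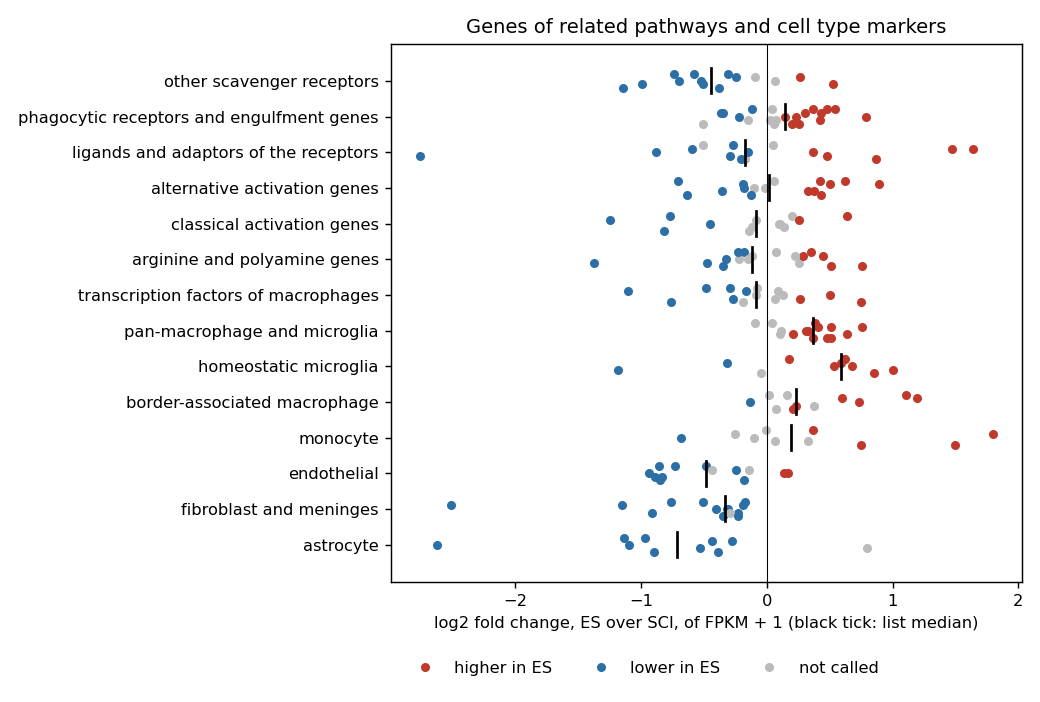
Log2 fold change of FPKM + 1, ES over SCI, of single genes of 14 pathway and marker lists, one row of points a list, red where higher in ES, blue where lower and grey where not called, with a black tick at the list's median. The other scavenger receptors, endothelial, fibroblast and astrocyte lists lie mostly to the left of 0, and the macrophage and microglia lists mostly to the right.

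Marker lists of macrophages, microglia and blood cells were counted beside the receptors. The shares over all genes tested were 17.4% higher in ES and 27.6% lower. Of the pan-macrophage and microglia markers 11 of 15 were higher and 0 lower (1 lower after quantile normalization or rescaling to equal totals), and of the homeostatic microglia markers 8 of 11 were higher and 2 lower, with sums of 481 to 487 FPKM in ES and 395 to 407 FPKM in SCI. Of the border-associated macrophage markers 6 of 11 were higher and 1 lower, with sums of 514 to 533 FPKM in ES and 446 to 466 FPKM in SCI. The count of the border-associated list depended on the scaling, with 10 higher and 0 lower after median centring, 8 higher after quantile normalization and 5 higher after rescaling to equal totals. Lyve1, a hyaluronan receptor of these cells, averaged 12.5 ± 1.01 FPKM in ES and 4.89 ± 0.442 FPKM in SCI (log2 fold change 1.19), and the lectin Clec4a1 27.0 FPKM in ES and 12.0 FPKM in SCI. The 1 lower marker of this list, Dab2, averaged 68.2 FPKM in ES and 74.8 FPKM in SCI. Siglec1, Ms4a7, Igfbp4 and Gas6 were not called. Of the monocyte markers 4 of 10 were higher and 1 lower, and their sum was lower in ES, at 528 to 566 FPKM in ES and 590 to 604 FPKM in SCI. Most of that sum was S100a4, at 353 FPKM in ES and 378 FPKM in SCI, which was not called. The 1 lower marker, Fn1, averaged 97.3 FPKM in ES and 157 FPKM in SCI. Among the 4 higher, Fcnb averaged 9.41 FPKM in ES and 1.97 FPKM in SCI, Ms4a4a 23.1 and 7.55, and Vcan 23.4 and 13.8. Of the neutrophil markers 5 of 9 were higher and 1 lower, with sums of 120 to 124 FPKM in ES and 80.2 to 85.3 FPKM in SCI. S100a8, a calcium-binding protein of neutrophils, averaged 21.8 FPKM in ES and 3.24 FPKM in SCI (log2 fold change 2.43). The 1 lower neutrophil marker, Mmp8, averaged 29.5 FPKM in ES and 36.5 FPKM in SCI, and Cxcr2, Csf3r and Lcn2 were not called.

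Beside the lower Scarb1 and Colec12, 9 of 13 endothelial markers were lower and 2 higher (0 higher after rescaling to equal totals), with sums of 181 to 184 FPKM in ES and 243 to 250 FPKM in SCI, and with Cldn5, a defining marker, listed at 0. Of the fibroblast and meningeal markers 13 of 14 were lower and 0 higher, with sums of 1248 to 1271 FPKM in ES and 1699 to 1826 FPKM in SCI. Of the astrocyte markers 9 of 10 were lower and 0 higher, with sums of 4466 to 4587 FPKM in ES and 6225 to 6295 FPKM in SCI. Oligodendrocyte markers were higher in 10 of 10, with sums of 13523 to 13553 FPKM in ES and 8538 to 8620 FPKM in SCI, and neuronal markers were higher in 7 of 10 and lower in 0. The part of these cell types in the receptor levels was not tested.

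The genes with the profile most like each receptor over the 6 libraries were found by the root mean square difference of the centred log2(FPKM + 1) values. Because libraries within a group were mostly alike, a near gene is mainly one with a similar change between ES and SCI. Shared regulation was not tested. Stab1 was nearest to Fcrl2 (0.04), which averaged 160 FPKM in ES and 65.9 FPKM in SCI, then to Apold1 and Ceacam4. Msr1 was nearest to Pbx3 (0.03), Mki67 and Rras2, of which Mki67 encodes the proliferation marker Ki-67. Mrc1 was nearest to Dnajb11, Cd53 and Cept1, with Cd53, a leukocyte tetraspanin, at 171 FPKM in ES and 117 FPKM in SCI. Cd163 was nearest to Micall1, Tnfsf13 and Mob3b, and Folr2 to Timeless, Fkbp4 and Glb1. Colec12 was nearest to the interferon-induced Mx1 (0.01), which averaged 44.6 FPKM in ES and 79.3 FPKM in SCI, then to Frmd6 and Slc14a1. Scarb1 was nearest to Myl9, Ddit4 and Cavin3, with Myl9, a smooth muscle myosin light chain, at 26.0 FPKM in ES and 45.5 FPKM in SCI. Arg1 had no partner as close by this measure: its nearest genes, Kirrel3, Neu4 and Barx2, were 0.11 to 0.17 away. Arg1 also had the most scattered libraries, with an SD of 13.9% of the mean in ES and 31.3% in SCI, and that scatter enters the measure.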

How the data were processed

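RNA of 3 ES and 3 SCI libraries was grouped by the treatment labels. Per the labels' protocols, stranded libraries with inserts of about 300 bp were built from the poly(A) RNA in 1 ug of total RNA and read from both ends. The authors deposited FPKM per library for 32623 genes and 40808 transcripts, with 0.0001 standing for 0. The submitters' processing notes name HISAT and StringTie. No source used here gives the genome build; coordinates are the files' own, apart from promoters, which are RefSeq's on GRCr8. The authors also deposited a fold (the ratio of mean FPKM, ES over SCI), its log2, and a p-value and q-value from a test that no source used here describes.

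Features with a mean of at least 0.5 FPKM were tested two-sided on log2(FPKM + 1) in limma (version 3.58.1; R 4.3.3), allowing a mean-variance trend, and Benjamini-Hochberg adjusted over all features tested, with calls at 0.05. Fold changes on that scale understate those of low genes, and a ratio or fold is one of mean FPKM. Transcript usage was tested with limma's diffSplice. Levels relative to macrophage markers, and ratios of genes, were compared with exact permutation tests. Read pairs were estimated from the step size of low transcript values, taking 1 step as 1 read pair, and limit the precision of low genes. The limma test of genes and the usage test were tried on simulated data first, with the same dispersion for all genes. Of simulated 1.5-fold gene changes 71.6% were recovered. The exact permutation tests were not simulated.

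The genes and lists were chosen with earlier results of these data known. Named beside the members were, from each list and direction, up to 3 called genes with the smallest p, and the 3 genes of most like profile with at least 1 FPKM; a listed gene is not reported here. Hp, and the genes that were not called, were named after their values were seen, as were those set out for the tissue check. Alternatives were pseudocounts of 0.1 and 0.01, other filters and scalings, no trend, the replicate number as a block, other marker sums, and leaving out each library.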

Additional observations from a re-analysis of the deposited data

How the results depend on the processing

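Over 15 alternatives (pseudocounts of 0.1 and 0.01, no filter or one at 2 FPKM, 3 other scalings, no trend, a replicate block and leaving out each library), 111 of 120 values of the 8 genes kept their call, 9 lost it, all for Cd163, and 0 changed direction. The log2 fold change of Cd163 was 0.24 with an adjusted p of 0.0691 without a filter, 0.24 with 0.0516 at 2 FPKM, and 0.18 with 0.0908 after rescaling to equal totals; limma's adjusted p is meant throughout, and the cause of these losses was not tested. Leaving out a library gave Cd163 0.21 to 0.29 (adjusted p 0.0357 to 0.129). Over the alternatives Stab1 ranged between 1.22 and 1.38, Arg1 between 1.31 and 2.00, Scarb1 between -0.85 and -0.69 and Colec12 between -0.88 and -0.71.

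The number of genes called was 7088, and 5907 to 6430 with a library left out. Genes called for transcript usage numbered 228, and 569 without a filter; leaving out a library gave 163 to 199.

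Replicate numbers are shared by the groups. ES and SCI libraries as such correlated at 0.984 to 0.985. To compare the numbers, the group mean of each gene was subtracted from its values. The correlations of these deviations were -0.03, -0.04 and -0.04 for same-numbered libraries. For differently numbered libraries of the groups they were -0.06 to 0.10. With 3 libraries in a group such values cannot decide whether the numbers pair the libraries, and the labels do not say. With the replicate block, Cd163 had a log2 fold change of 0.24 (adjusted p 0.0692), 6317 genes were called and usage calls fell to 115; no other call among the 8 genes changed.

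Relative to the macrophage markers, Folr2 turned from -0.01 to 0.0068 with the mean log2 level of the markers and to 0.10 without the C1q genes, and Cd163 to 0.09 without them. Without the C1q genes the groups of Folr2 no longer overlapped, and those of Cd163 still did. Leaving out a library gave -0.027 to 0.017 for Folr2, -0.059 to 0.052 for Cd163 and -0.054 to 0.035 for the ratio of Cd163 to Folr2. With 2 libraries in a group the exact test cannot go below 0.2, so these rest on values, not calls. Cd163 and Arg1 had the fewest estimated read pairs, and depth limits them most.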
